A study of Mus with 6 samples.

Results

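In the right substantia nigra pars compacta of mice overexpressing human α-synuclein (A53T), 4 miRNA loci and 5 clone-named RNAs were far lower in animals given AVE0991 than in animals given saline. The loci were Mir6408, Mir6400, Mir3107 and Mir6354. The clone-named RNAs, whose symbols come from cDNA clones or gene models, were 8430422H06Rik, 5930438M14Rik, Gm20751, Gm20743 and 4930594M22Rik. They were picked by name out of the 2282 names in the authors' deposited table by gene name, because their mean there was much lower with AVE0991. That difference is therefore given as a description, with no test. The table holds 256 miRNA loci and 1628 clone-named RNAs.

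Both groups held 3 samples of the same genotype. The model group was injected intraperitoneally with 0.9% sterile saline, and the other group with AVE0991 at 10 mg/kg, each once a day for 30 days. The substantia nigra pars compacta is the midbrain region whose dopaminergic neurons are lost in Parkinson's disease. AVE0991 is a small molecule that activates Mas, a receptor for angiotensin-(1-7). The labels give neither the promoter of the transgene nor the animals' age, and do not say that samples came from separate animals, so the spread between samples may be technical.

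A miRNA is made from a longer primary transcript, out of which the enzyme Drosha cuts a short hairpin that Dicer then trims to the mature strand. Many hairpins lie inside introns or exons of host genes. A count at a miRNA locus in a library of total RNA can therefore come from the primary or host transcript, and it does not measure the mature miRNA. Mir3107 is also known as miR-486b, a hairpin at the same place as that of miR-486, a miRNA known from muscle and red blood cells. For the other 3 loci and the 5 clone-named RNAs no function is given here.

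The libraries of the count table by identifier held 37036986 to 52029003 counts. The named table gives group means and a test per name, from which the whole counts of each library were recovered. The recovered libraries are called a, b and c within each group and were not matched to replicate numbers. All values below are normalized counts, that is, counts divided by a library factor of 0.921 to 1.18, and they are not corrected for length. Model library c stood apart from the other model libraries, with values of the 9 RNAs closer to those of the AVE0991 group, so results are also given without it. In a bulk sample, fewer cells of a type and less RNA per cell cannot be told apart. None of the 37 marker genes of neurons, glia, vessels, choroid plexus and blood, and none of 20 miRNA processing genes, is in the named table, so the tissue's makeup was not tested.

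Mir6354 had the lowest counts of the 9 RNAs and the steepest difference. In libraries a, b and c its normalized count was 246, 308 and 174 in the model group, and 14.1, 17.3 and 32.6 with AVE0991. The groups were far apart, although AVE0991 library c was well above the other AVE0991 libraries. The means were 242.5 ± 67.1 and 21.3 ± 9.86 (SD, n = 3 each), a fitted log2 fold change of -3.45 ± 0.39 (SE). Those AVE0991 values rest on 14, 17 and 30 counts, so counting error alone is 22.2% of a value.

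Mir6408 had 1827, 2022 and 1094 normalized counts in the model libraries and 180.4, 175.5 and 177.0 in the AVE0991 libraries. The AVE0991 libraries were nearly alike, with a coefficient of variation of 1.42%, below the 7.64% that counting error alone gives at this depth, whereas the model libraries varied by 29.7%. The means were 1648 ± 489 in the model group and 178 ± 2.52 with AVE0991 (SD, n = 3 each). The log2 fold change was -3.16 ± 0.25 (SE).

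Mir6400 had 1854, 1478 and 1146 normalized counts in the model libraries and 141, 242 and 128 with AVE0991. Here AVE0991 library b was the high one, and its coefficient of variation with AVE0991 was 36.5%. The log2 fold change was -3.08 ± 0.29 (SE). Mir3107, the miR-486b hairpin, differed less: 629.5, 498.5 and 449 in the model libraries against 100.8, 104 and 116 in the AVE0991 libraries, a log2 fold change of -2.24 ± 0.21 (SE).

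**Figure D1:**
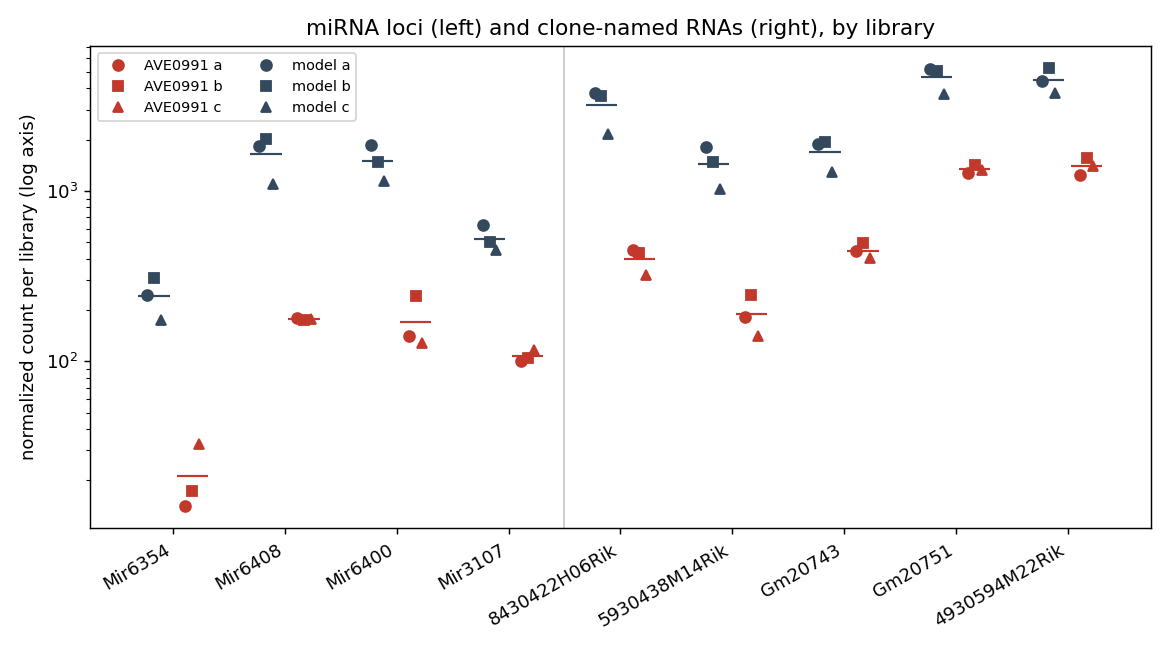
Normalized count (log axis) of each RNA in each recovered library, with miRNA loci left of the grey line and clone-named RNAs right of it. Dark symbols are model libraries, red symbols AVE0991 libraries, and short lines group means. Every red symbol lies below every dark symbol of the same RNA, and model c (dark triangle) is the lowest dark symbol in all 9.

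Among the clone-named RNAs, 8430422H06Rik and 5930438M14Rik had fold changes close to those of Mir6408 and Mir6400. 8430422H06Rik had 3769, 3624 and 2158 normalized counts in the model libraries and 451.5, 429.5 and 321 with AVE0991. Its log2 fold change was -2.94 ± 0.24 (SE). 5930438M14Rik had 1798, 1473 and 1022 in the model libraries and 182, 244 and 141 with AVE0991. Its log2 fold change was -2.87 ± 0.28 (SE). AVE0991 library b was its highest AVE0991 library, as in 5 of the 9 RNAs, Mir6400 among them.

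The other 3 clone-named RNAs differed less. Gm20743 had 1897, 1926 and 1287 normalized counts in the model libraries and 441, 497 and 403 in the AVE0991 libraries, a log2 fold change of -1.88 ± 0.20 (SE). Gm20751 had 5204, 5061 and 3702 against 1273, 1421 and 1329, a log2 fold change of -1.74 ± 0.17 (SE). 4930594M22Rik had 4416, 5272 and 3763 against 1245, 1563 and 1391, a log2 fold change of -1.63 ± 0.17 (SE). Even for these, the lowest model library exceeded the highest AVE0991 library by at least 2.41 times.

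In all 9 RNAs every AVE0991 library was below every model library, as it was for 22.5% of the 1867 names tested (47.5% of miRNA loci and 19.1% of clone-named RNAs), and since the 9 were chosen for this difference nothing is read from that count. By the quasi-likelihood test of edgeR on Benjamini-Hochberg adjusted p, 298 of 1867 names were called (16.0%), 155 of them lower with AVE0991 (8.30%). The share called lower was 15.8% of 221 miRNA loci and 6.91% of 1303 clone-named RNAs. Leaving out AVE0991 library a, b or c gave 142, 153 and 149 calls, and leaving out model library a, b or c gave 112, 93 and 417. The median log2 fold change was -2.87 over the 9 RNAs, -0.37 over 221 tested miRNA loci, 0.07 over 1303 tested clone-named RNAs and -0.015 over all tested names.

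The 4 loci were the 4 lowest by fold change of all 221 tested miRNA loci, in the order Mir6354, Mir6408, Mir6400 and Mir3107. By count in the model group they ranked 127, 49, 52 and 101, so they were not the most counted loci. The next loci outside the choice were Mir6386, with a log2 fold change of -2.01 ± 0.28, and Mir3081, with -1.85 ± 0.21 (SE).

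The clone-named RNAs were not the lowest of their class. Among 1303, 8430422H06Rik ranked 7 and 5930438M14Rik 9 by fold change, and Gm20743, Gm20751 and 4930594M22Rik ranked 32, 36 and 41. The lowest clone-named RNA outside the choice was 4930500L23Rik, with 0 counts in the AVE0991 group and 132 in the model group, at least 37.6-fold lower with AVE0991 (taking 3 counts over the group as the floor). The next was 2210414B05Rik, with 7 and 155 counts. Among RNAs with a model mean of at least 100, a limit set after values were seen, Gm2694 (log2 fold change -4.03) and D030025P21Rik (-3.04) were lower than both 8430422H06Rik and 5930438M14Rik.

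**Figure D2:**
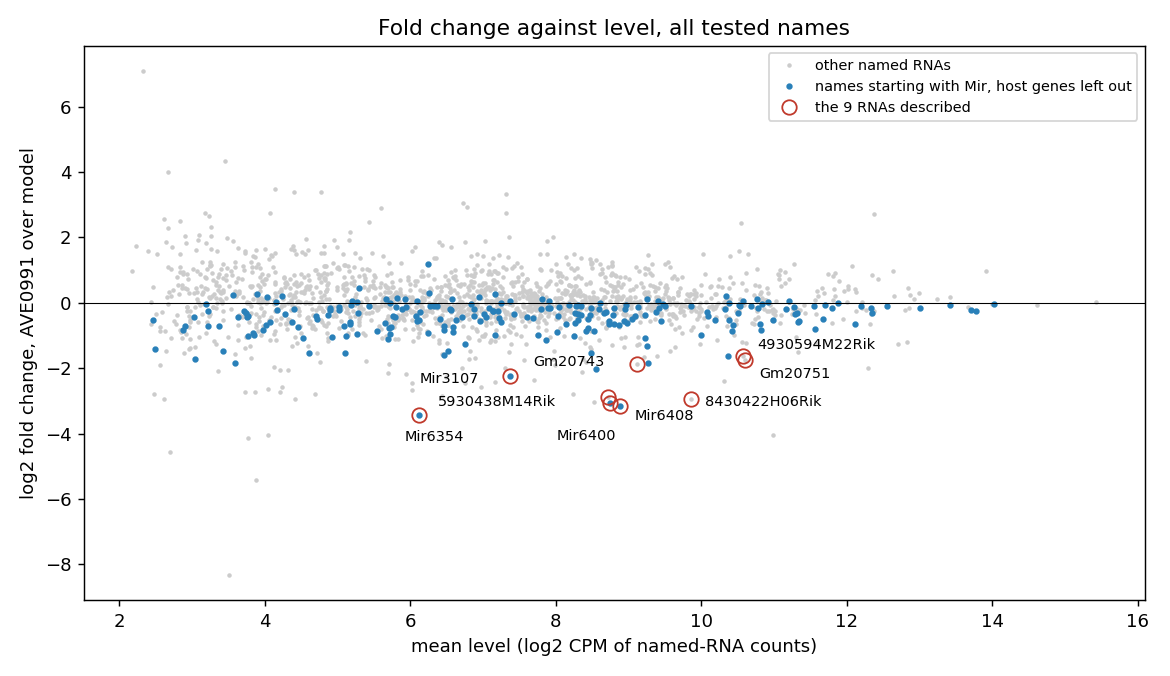
Fitted log2 fold change of AVE0991 over model against mean level in log2 CPM (named-RNA counts scaled to library size), 1 point per tested name. Blue points are names starting with Mir, and red circles are the 9 RNAs, which run from -1.63 for 4930594M22Rik to -3.45 for Mir6354; the 4 lowest blue points are all circled.

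Whether a locus and a clone RNA had near-equal values, as they could if both counted 1 transcript, was asked of all 36 pairs. Near-equal meant that both group means differed by at most 5% of the larger. No pair of a locus with a clone RNA met this, out of 20. The single pair that did was Gm20751 with 4930594M22Rik, both clone-named, with AVE0991 means of 1341 and 1400 and model means of 4656 and 4484, differences of 4.18% and 3.69%. Among all 755835 pairs of names with a model mean of at least 100, 0.194% were near-equal by the same limits. Those names were not chosen for a large difference between groups, as the 9 were, so the shares are not compared. At limits of 1% no pair of the 9 RNAs qualified. At 10% there were 3, the others being Mir6400 with 5930438M14Rik and Mir6408 with Mir6400. None of 37 pairs of names that overlap in the RefSeq annotation met the 5% limits. Only 19 of the 37 had a model mean of at least 100 for both names. The limits therefore cannot decide whether transcripts are shared.

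Library by library, Gm20751 and 4930594M22Rik did not track each other within counting error. Over libraries a, b and c their ratio was 1.02, 0.909 and 0.956 with AVE0991 and 1.18, 0.960 and 0.984 in the model group. In model library a they had 6134 and 5205 counts, a difference of 8.72 times its counting error (the square root of the summed counts). Only 3 of the 6 libraries had differences under 1.96 times that error, and without model library c the group means also moved outside the 5% limit.

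The closest locus and clone RNA were Mir6400 and 5930438M14Rik. With AVE0991 their counts were 140 and 181, 237 and 239, and 118 and 130 over the libraries in that order. In the model group they were 2185 and 2119, 1652 and 1646, and 1240 and 1106. Of the 6 differences, 4 were within counting error, and the largest was 2.77 times that error. The group means differed by 9.94% with AVE0991 and by 4.14% in the model group. Of the other 2239 names, 5930438M14Rik and D030025P21Rik, another clone-named RNA, came within counting error of Mir6400 in at least 4 libraries, and none did in all 6.

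Mir6408 and 5930438M14Rik were also within counting error in 4 of the 6 libraries, the only other locus and clone RNA that were. Their group means differed by 6.09% with AVE0991 and by 13.2% in the model group. The ratio of Mir6408 to 5930438M14Rik ran from 0.720 in AVE0991 library b to 1.37 in model library b, the libraries outside counting error, and in model library b they differed by 9.81 times that error. Mir6354, Mir3107, 8430422H06Rik and Gm20743 had no name within 10% of both of their means.

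**Figure D3:**
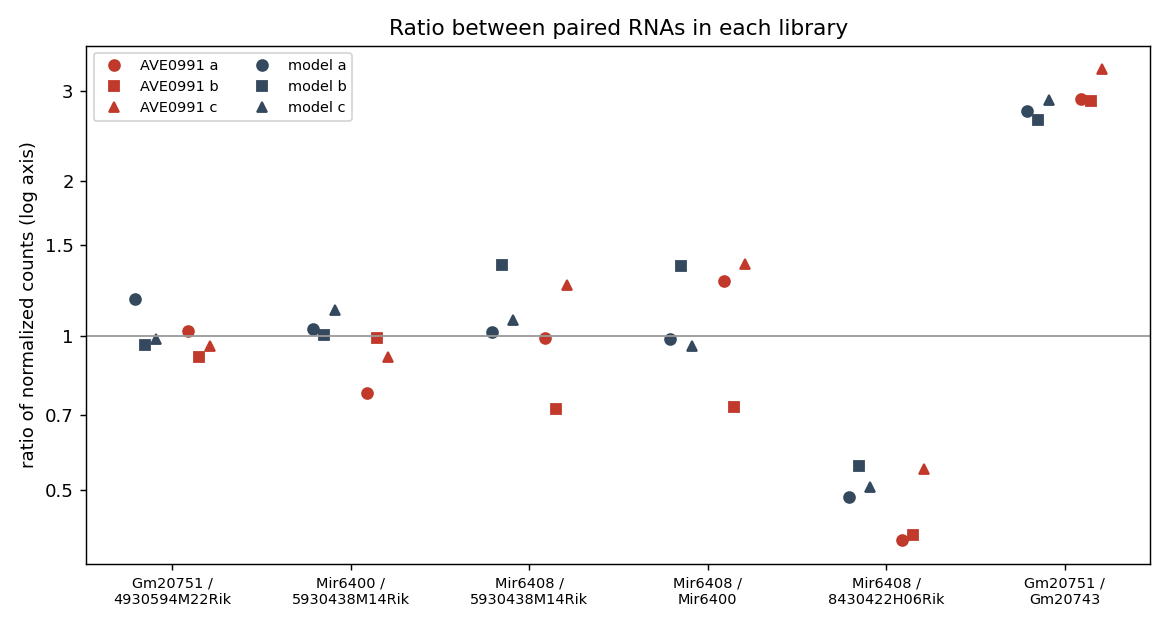
Ratio of normalized counts within 6 pairs (log axis), 1 symbol per library, with dark symbols for model and red for AVE0991 libraries; the grey line marks equality. Gm20751 over Gm20743 stays between 2.63 and 3.30, whereas Mir6408 over 5930438M14Rik runs from 0.720 to 1.37.

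Equal levels and equal patterns were separate questions, so the distance between RNAs was also taken after each was centred on its own mean. The distance is the root mean square difference of log2(normalized count + 0.5) over the 6 libraries. Centring does not remove the difference in fold change. For Mir6408 and Gm20751 the log2 fold changes differed by -1.42 and the centred distance was 0.70. The steep set and the shallow set given next therefore largely restate the fold changes and are no separate result. Mir6408, Mir6400, 8430422H06Rik and 5930438M14Rik lay 0.17 to 0.34 apart. Gm20743, Gm20751 and 4930594M22Rik lay 0.10 to 0.18 apart. Mir3107 was nearer to the shallow set (0.27 to 0.36) than to the steep one (0.44 to 0.55), and Mir6354 was at least 0.41 from every other.

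The smallest distance in pattern was between Gm20751 and Gm20743, at 0.10. Their counts were far from equal, with Gm20751 at 2.63 to 3.30 times Gm20743 in every library. Mir6408 and 8430422H06Rik were 0.19 apart, with Mir6408 at 0.400 to 0.558 of the clone RNA. 8430422H06Rik and 5930438M14Rik were 0.17 apart, at a ratio of 1.76 to 2.48. The likeness in pattern is in part fixed by the choice of RNAs for a large difference between groups, and it includes likeness in fold change.

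**Figure D4:**
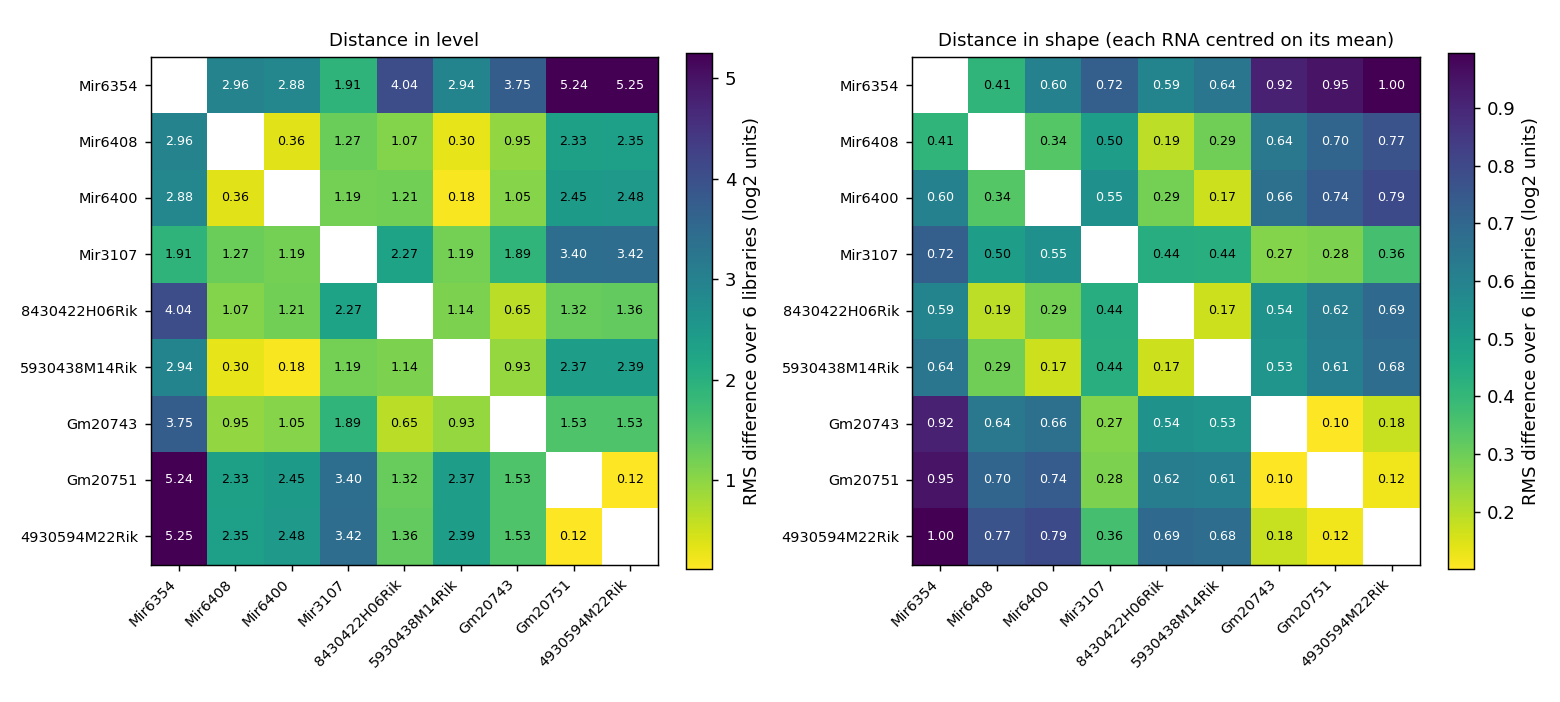
Root mean square difference in log2 units over the 6 libraries for each of the 36 pairs, in level (left) and after centring each RNA on its mean (right); lighter squares are more alike. In level the lowest values are 0.12 for Gm20751 with 4930594M22Rik and 0.18 for Mir6400 with 5930438M14Rik, and in pattern 0.10 for Gm20751 with Gm20743.

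RefSeq places the 9 RNAs on 7 chromosomes. Of the 36 pairs, 34 lie on different chromosomes, and none of the 36 overlap or are next to each other. The 34 include Gm20751 with 4930594M22Rik and every pair among Mir6400, Mir6408 and 5930438M14Rik. The 2 pairs on the same chromosome were 5930438M14Rik with Gm20751 and Mir6354 with Gm20743. Their distances in level were 2.37 and 3.75. For comparison, 37 pairs of names in the table do overlap in RefSeq, 8 of them a miRNA locus with a gene that is not a miRNA locus. None of the 37 were near-equal by the 5% limits. Both names had a model mean of at least 100 in 19 of the 37, and in 6 of the 8. Dleu2, the host gene of Mir16-1, had a model mean of 4589 against 3117 for the locus and was 0.12 from it in pattern. Mir344 and A230057D06Rik were 0.09 apart in pattern, with model means of 1053 and 3165. These were the closest in pattern of the 8. The others ran from 0.18 (Mir344b with A230057D06Rik) to 1.34 (Mir6516 with Snhg20, where Mir6516 had a model mean of only 9.51). Whether unlinked genes shared reads through repeated sequence was not tested.

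Each of the 9 RNAs was also set against all other names of the table. In level, the nearest name was another of the 9 for 5 of them: Mir6408, Mir6400, 5930438M14Rik, Gm20751 and 4930594M22Rik. The nearest to 8430422H06Rik and to Gm20743 was Mir3081 (distances 0.61 and 0.18). The nearest to Mir3107 was 6030443J06Rik (0.40), followed by Paupar (0.41), the lncRNA beside Pax6. The nearest to Mir6354 was 9130019P16Rik, at 0.76. Mir34a, a miRNA gene induced by p53, was the second nearest to both Gm20751 (0.21) and 4930594M22Rik (0.23), with 4177, 4257 and 3281 normalized counts in the model libraries and 1224, 1195 and 1214 with AVE0991.

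In pattern, which includes the fold change, Mir34a was the closest name to Gm20751 (0.09), nearer than any of the 9. Their log2 fold changes were -1.64 and -1.74. D030025P21Rik was closest to Mir6400 (0.14), with 1586, 1385 and 836 normalized counts in the model libraries and 115, 206 and 126 with AVE0991. Lhx1os, beside the homeobox gene Lhx1, was second to 8430422H06Rik in closeness to Mir6408 (0.24). Airn, an imprinted RNA antisense to Igf2r, was closest to Mir3107 (0.22). Snhg8, which hosts a small nucleolar RNA, was closest to 5930438M14Rik (0.17), at a far lower count of 45.1 in the model group. With AVE0991, Snhg8 had only 7.06, 8.16 and 4.34 normalized counts, so counting error is large and its place as closest is uncertain.

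The surroundings of the 9 RNAs had little in common. In RefSeq, 4 of them (Mir6408, Mir6354, 8430422H06Rik and Gm20751) overlap no other gene. Mir6400 lies within Decr1, a mitochondrial enzyme gene of fatty acid oxidation, with the DNA repair gene Nbn as its next gene. Mir3107 lies within Ank1, the gene of a red cell membrane scaffold, and overlaps Mir486 and the lncRNA Gm15816; the homeobox gene Nkx6-3 is the next gene. 4930594M22Rik overlaps Ggact and Tmtc4. Gm20743 and 5930438M14Rik each overlap 1 lncRNA, Gm32652 and Gm36427. Without strand information, reads of overlapping genes cannot be told apart.

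Of 26 overlapping or next genes, only Pldi was in the named table. Pldi, a lncRNA gene first described in mouse testis, is the next gene to Mir6408 and had no part in the choice of the 9. It moved the other way. It had 55.1, 33.1 and 23.1 normalized counts in the model libraries and 94.7, 77.5 and 138 with AVE0991, so the groups did not overlap. It rose by 1.53 ± 0.41 on the log2 scale (SE; quasi-likelihood test of edgeR, Benjamini-Hochberg adjusted p = 0.0386). When libraries were left out in turn the call was lost 5 times of 6, all but without model library a, with adjusted p up to 0.127 (edgeR). The other 6 alternatives kept it.

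Model library c was the lowest model library for all 9 RNAs. It stood at 56.9% of the mean of model a and b for Mir6408, 58.4% for 8430422H06Rik, 62.5% for 5930438M14Rik and 62.7% for Mir6354. The value was 67.3% for Gm20743, 68.8% for Mir6400 and 72.1% for Gm20751, and highest for 4930594M22Rik (77.7%) and Mir3107 (79.6%). Among all tested names model c was lowest in 38.4%, and the median was 98.0%. Among the 146 other names called lower with AVE0991 it was lowest in 80.8% (median 76.4%), and among the 143 called higher in 3.50% (median 141.5%).

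**Figure D5:**
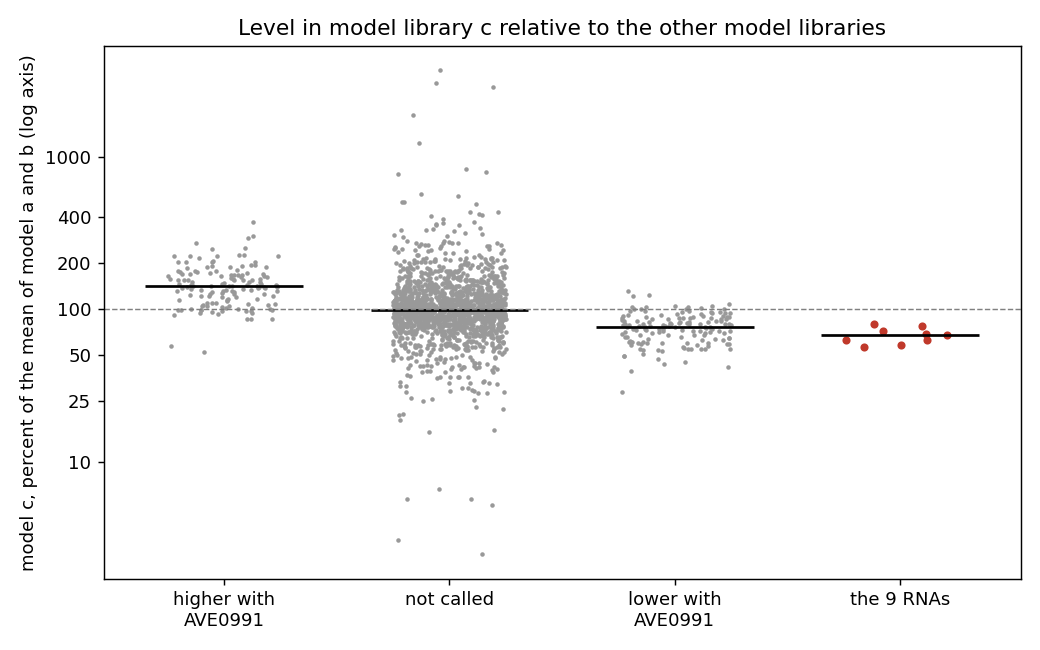
Normalized count in model library c as a percentage of the mean of model a and b (log axis), 1 point per name, for names called higher, not called or called lower with AVE0991 and for the 9 RNAs; lines are medians and values of 0 are left out. The 9 RNAs lie between 56.9% and 79.6%.

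The 9 RNAs were also lower with AVE0991 than in model library c alone, as they must be where the groups do not overlap. The AVE0991 mean was 12.3% of model c for Mir6354, 14.9% for Mir6400, 16.2% for Mir6408 and 18.5% to 18.6% for 5930438M14Rik and 8430422H06Rik. It was 23.8% for Mir3107 and 34.7% to 37.2% for the other 3. Without model c the log2 fold changes were lower still in each of the 9, by 0.11 for Mir3107 up to 0.23 for Mir6408, which then had -3.39 ± 0.16 (SE). Since model c was the lowest model library of each, these values are a description and no check of the difference.

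The values and distances in level above are not corrected for length, so they compare counts and not the abundance of different RNAs. Here counts are also given per base of the RefSeq gene. In the model group Mir6408 had 18.1 normalized counts per base over 91 bases, Mir6400 16.2 over 92, Mir3107 5.84 over 90 and Mir6354 2.09 over 116. The median of the 221 tested miRNA loci was 4.74. Across its whole gene span, introns included, 8430422H06Rik had 0.0689 per base and 5930438M14Rik 0.0928. Mir6400 and 5930438M14Rik were near in count, so their distance per annotated base reflects annotated lengths of 92 and 15425 bases. The sources used here do not say which bases were counted for each name, so nothing is read from that distance.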

How the data were processed

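Total RNA of right substantia nigra pars compacta was sequenced in 3 samples per group. Per the labels' protocols, FastQC 0.11.8 checked the reads and fastp 0.19.5 trimmed them where necessary. The submitters' processing notes name STAR 2.7.7a, DESeq2 1.10.1 and mm9 as the build. For the counting program and strand setting the sources used here name nothing. The annotation shows only in the NONCODE identifiers of the counts. The authors deposited whole-number counts per NONCODE identifier, used here for library totals only, because that table holds no names. Per the file headers, the authors' deposited table by name holds the mean signal of each group (counts divided by a library factor), a ratio with 1 added to both means, its log2, and the statistic (a score), degrees of freedom and unadjusted p-value of a test per name. The p-value was not used.

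Whole counts per library were recovered from that table: group means of 3 scaled counts, together with both variances (from the statistic and its degrees of freedom), leave few possible whole numbers. Exactly 1 set returned the means (relative tolerance 1e-09) and variances for 2240 of the 2247 names above 0 (99.69%). 2 had several sets and 5 had a group mean above 100000, so these 7 were not fitted; 35 names were 0 throughout. On simulated data 2232 of 2235 names had 1 set, and all 2232 were the simulated counts. edgeR 4.0.16 (quasi-likelihood, TMM, filterByExpr, R 4.3.3) was fitted to the recovered counts of all names, with Benjamini-Hochberg adjusted p under 0.05 as the call. The SE of a fold change is its size over the root of the F statistic. In simulated data (1834 names tested), 36.6% of 93 names changed 2-fold were called, 88.9% of 99 changed by 2 on the log2 scale were called, and 4.69% of calls were unchanged names. The members, lists and tests were chosen with earlier results of these data known. As alternatives, scaling by library totals or DESeq2 size factors was tried, and DESeq2 1.42.0, limma-voom (limma 3.58.1), other filters, a 2-fold minimum, each library left out, other limits for near-equality and other pseudocounts.

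The names described are the 9 RNAs, the 2 names closest to each in level, names that overlap or neighbour them in RefSeq, and the 2 miRNA loci and 2 clone-named RNAs with the lowest fold change outside the 9. Names closest in shape, and those limited by level, were chosen after values were seen. RefSeq (GRCm38.p6) was used for class, span and neighbours. Its spans and overlaps may differ from those of the features counted. Coordinates are left out, as the files' build is another.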

Additional observations from a re-analysis of the deposited data

How the results depend on the processing

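The number of named RNAs called, 298, stayed between 280 and 404 under other scaling, filters and tests (6 alternatives), was 184 with a 2-fold minimum, and ran from 93 to 417 with 1 library left out, where fewer samples enter. None of the 108 alternative log2 fold changes of the 9 RNAs (12 each) changed sign or moved by more than the spread between replicates. The widest range was that of Mir6354, -3.91 to -3.21 with a library left out. The number of near-equal pairs was 1, against 0 with limits of 1%, 3 with limits of 10%, 0 when every library had to be within 10%, and 0 to 1 with a library left out (0 without model library c). The distance between Mir6400 and 5930438M14Rik, 0.18, ran from 0.10 to 0.19 with a library left out. No paired analysis was possible because the named table carries no replicate numbers. The low counts of Mir6354 with AVE0991 limit its fold change. Intervals of counting error take reads as independent molecules.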
